A study of Mus musculus with 2 samples.

Results

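The genes described here are 10 members of the Wnt pathway, named by symbol: the ligands Wnt3, Wnt4, Wnt7b, Wnt10a and Wnt16, the receptor Fzd6, the amplifier Rspo3, and Lef1, Axin2 and Nkd1 on the response side. They are 10 of the 31053 genes counted in a single-cell RNA-seq series of mouse back skin, and each matched 1 feature. The series holds 1 control mouse and 1 miR-205-inducible mouse at postnatal day 53, with 1 10x Genomics library each. The comparison addresses how a raised level of miR-205, a microRNA of skin epithelium, alters skin cells 4 days after induction. Follicles still look at rest then, but the study places this time at the transition from rest to growth. It reports that some induced follicles already held hair germ cells positive for Ki67, a marker of an active cell cycle.

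The induced mouse carried a pTRE2-miR-205 transgene driven by Krt14-rtTA, a doxycycline-dependent activator made in keratin 14-positive epithelium, which limits the model to epithelium as the directly targeted tissue. Both mice carried a K14-H2BGFP allele. The labels give the strain as C57BL/6, while the transgene had been injected into FVB embryos. Doxycycline chow ran for 4 days from day 49. The control is called untreated in its characteristics, whereas the extraction protocol has both mice fed doxycycline. Cells were sorted so that epidermal, follicle and dermal cells entered at 3:5:2, so the sort also affects the share of each population. Barcodes numbered 4545 in the control library and 4264 in the induced one, with 55465594 and 49733560 UMIs (unique molecular identifiers, each counting 1 captured RNA molecule). The study's filter kept 3936 and 3628 cells with medians of 12198.5 and 11752.5 UMIs, and 5 kept barcodes occurred in both libraries. No counted feature is named for miR-205, so the induction itself was not measured here. With 1 library per mouse there is no replicate check and no test. Intervals below are exact 95% intervals that cover counting error only, and a difference beyond counting error is a difference between 2 libraries.

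Wnt proteins are secreted ligands that bind Frizzled receptors and LRP co-receptors, stabilise β-catenin and let it act with TCF/LEF factors on target genes. R-spondins strengthen the signal by protecting Frizzled receptors from removal, while Axin2, Nkd1 and Notum are feedback inhibitors whose transcription the pathway itself raises. In skin, epidermal and follicle keratinocytes make Wnt ligands, the dermal papilla is a signalling centre at the base of the follicle, and Wnt signalling in the hair germ starts a new growth phase.

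Because the induced molecule is a microRNA, its sequence and the only seed site among the 10 genes are shown first. The mature sequence is from RefSeq (GRCm38.p6, chr1:193507503-193507524, minus strand), with its seed, bases 2 to 8, in capitals. The site is from the longest annotated 3′ UTR of Nkd1, bases 1315 to 1321 of 2735, with the 7 bases that complement the seed in capitals.
mmu-miR-205-5p: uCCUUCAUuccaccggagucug
Nkd1 3′ UTR site: tagctccatacATGAAGGgtgaagatcga
The other 9 genes held no such match in their longest annotated 3′ UTR. A share of 1 in 10 lies near the 10.3% of 20007 genes with at least 1 site, and a match is a description of letters, not evidence of binding. The promoter windows of the 6 genes with a RefSeq entry (Wnt3, Wnt4, Wnt16, Lef1, Axin2 and Nkd1; 250 bases before to 50 after the start) held neither CTTTGAT nor CTTTGAA on either strand, motifs read by TCF/LEF factors. Of all 32851 promoter windows 8.65% held at least 1 of them.

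Cells fell into 23 clusters, of which 21 had at least 20 cells in each library. A cluster carries a name with the suffix "-like" where its marker genes met a rule, and a number otherwise. The hair follicle stem cell (HF-SC)-like cluster had 6 of its 7 markers raised 2-fold over the other cells, with Krt15 the most abundant. Inner bulge-like cells had 5 of the 7 raised. Their summed HF-SC markers were higher, at 14388 and 16871 CPM beside 11551 and 14509 CPM in HF-SC-like cells. Cluster 6 is called hair germ-like from markers including Lgr5 and Cdh3, although Tagln, a smooth muscle gene, was among its 10 leading genes. Cluster 15 had the highest score over hair germ markers, but it also met the HF-SC criterion and stays unnamed. Both are described, and cluster 6 was added after its values were seen. In the dermal papilla-like cluster, the 10 leading genes included Notum and Pappa2 but none of the 5 naming markers, of which 3 were raised. The defining marker Corin had only 9 control and 7 induced UMIs. That cluster was shallow, with medians of 4493 and 5486.5 UMIs per cell.

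The ligands were distributed over keratinocytes in patterns that were much alike in both libraries. Levels are CPM, the UMIs of a gene scaled to a population total of 1e+06. Over the 15 populations with at least 50 cells per library, the Pearson correlation of log2(CPM + 5) between the libraries was 0.93 to 0.99 for every gene but Axin2, at 0.76. These points share the 2 libraries and are a description. For 6 of the 10 genes the same population ranked highest in both.

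**Figure D1:**
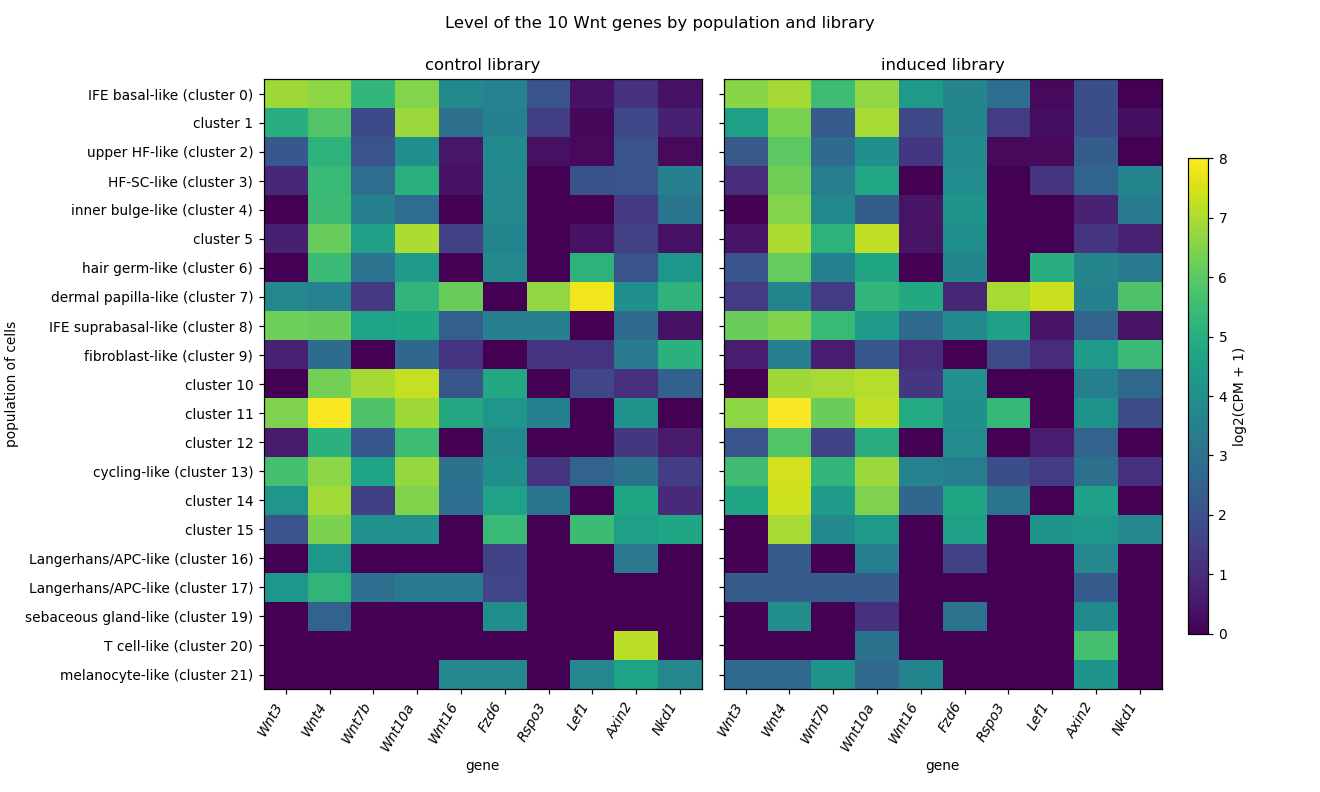
Each tile is the level of 1 gene (columns) in 1 population (rows) as log2(CPM + 1), for the control library at left and the induced library at right. Wnt4 was high across keratinocyte populations with its peak in cluster 11, whereas Lef1 and Rspo3 peaked in dermal papilla-like cells in both libraries.

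Wnt3 (ENSMUSG00000000125; chr11:103774175-103818021 on GRCm38.p6) marked the interfollicular epidermis (IFE). IFE basal-like cells had 114 CPM in control (107 to 120) and 94.2 CPM in induced cells (86.7 to 102). Cluster 11, whose leading genes include Slc2a12 and Edn2, had 86.7 and 98.0 CPM, and IFE suprabasal-like cells had 74.4 and 70.5 CPM. Basal-like cells led in control, but cluster 11 and basal-like cells had overlapping intervals in the induced library. HF-SC-like, inner bulge-like and hair germ-like cells had too few Wnt3 UMIs for a ratio. Over all kept cells Wnt3 went from 38.7 to 26.1 CPM, a log2 ratio of −0.57, yet no population passed 1.5-fold. Basal-like cells made up 14.9% of control and 9.81% of induced cells. With the induced levels weighted by the control library's share of UMIs per population, the log2 ratio was −0.20.

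Wnt10a (ENSMUSG00000026167; chr1:74792019-74804176), a ligand needed for hair and tooth development, was spread over many keratinocyte populations. Cluster 10, marked by Pthlh and Col4a4, ranked first in control and behind clusters 11 and 5 in induced cells, at 155 CPM (130 to 183) and 138 CPM (120 to 159). Cluster 5, marked by Serpinb11 and Lgr6, had 127 and 149 CPM, and cluster 11 had 114 and 150 CPM. The intervals of these 3 populations overlapped in each library, so their order was not resolved. HF-SC-like cells had 32.6 and 26.7 CPM, and inner bulge-like cells had 6.26 and 4.09 CPM. Among 15 populations with at least 20 UMIs over both libraries, 8 log2 ratios lay above 0 and the range was −0.64 to 0.39. The lowest rested on 8 control and 12 induced UMIs in inner bulge-like cells and was the only one past 1.5-fold.

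Wnt4 (ENSMUSG00000036856; chr4:137277635-137299501) was past 1.5-fold in more populations than any other member. Cluster 11 had 241 CPM in control (218 to 265) and 249 CPM in induced cells (225 to 276), above every other population in both libraries and nearly level between them. In HF-SC-like cells Wnt4 went from 140 UMIs (42.2 CPM) to 226 UMIs (76.5 CPM), a log2 ratio of 0.86 (0.55 to 1.17). Inner bulge-like cells had 56 and 263 UMIs, at 43.8 and 89.7 CPM, a log2 ratio of 1.02 (0.61 to 1.48). In hair germ-like cells the level was 42.6 CPM in control and 67.8 CPM in induced cells, for a log2 ratio of 0.67 (0.29 to 1.05). Upper hair follicle (HF)-like cells had 35.0 and 61.9 CPM, and cycling-like cells 95.7 and 175 CPM. In all these populations the induced interval lay above the control interval.

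Over the 16 populations with enough UMIs, the Wnt4 log2 ratio was above 0 in 16, past 1.5-fold in 8 and above 0 by its whole counting interval in 12. The median was 0.61, with a range of 0.039 in dermal papilla-like cells to 1.02. Below that minimum, Langerhans and antigen-presenting (APC)-like cells went the other way, with 17 control and 2 induced Wnt4 UMIs in cluster 17 and 9 and 2 in cluster 16. All 16 come from the same pair of libraries and are not independent. Under the processing alternatives the HF-SC-like value ranged from 0.82 to 1.00 and the inner bulge-like value from 0.74 to 1.27, while those near 0 in dermal papilla-like cells and cluster 11 reached −0.025 and −0.069. The median log2 ratio over all tested genes was between −0.064 and 0.084 in these populations. Over all genes, 10.3% of gene and population pairs were higher past 1.5-fold and 8.66% lower. How often other genes lay above 0 in every population is not given here. With cells thinned to 5000 UMIs each, 17.4% of control HF-SC-like cells (13.3 to 22.0) and 31.7% of induced cells (26.2 to 37.5) held a Wnt4 UMI. This left out 18 and 9 cells of lower depth, and without thinning the shares were 27.4% and 47.7%. Fibroblast-like cells, of similar median depth (10408 and 10178 UMIs beside 9962 and 10259), gave 1.77% and 3.90% after thinning and 5.88% and 7.03% before it. T cell-like cells held no Wnt4 UMI in either library. The summed level of 8 dissociation stress genes was 16071 and 20380 CPM in HF-SC-like cells and 5112 and 7095 CPM in inner bulge-like cells, and its part in the Wnt4 values was not tested.

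Wnt7b (ENSMUSG00000022382; chr15:85535437-85581821) had a different peak. Cluster 10 had 121 CPM in control (98.7 to 146) and 122 CPM in induced cells (104 to 142), above cluster 11 at 55.1 and 72.6 CPM and basal-like cells at 38.0 and 45.2 CPM. IFE suprabasal-like cells had 77 and 121 UMIs, at 24.1 and 41.6 CPM, for a log2 ratio of 0.79 (0.36 to 1.22). The log2 ratio was above 0 in 12 of 12 populations tested, past 1.5-fold in 6 (beside 10.3% of pairs over all genes) and above 0 by its whole interval in 6. The largest, 3.13 (1.36 to 6.56) in cluster 14, rested on 2 control and 19 induced UMIs, and 5 of the 91 induced cells there held 68.4% of the induced UMIs. In HF-SC-like cells there were 21 and 28 UMIs, at 6.33 and 9.48 CPM, which did not differ beyond counting error (log2 ratio 0.57, −0.29 to 1.47).

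**Figure D2:**
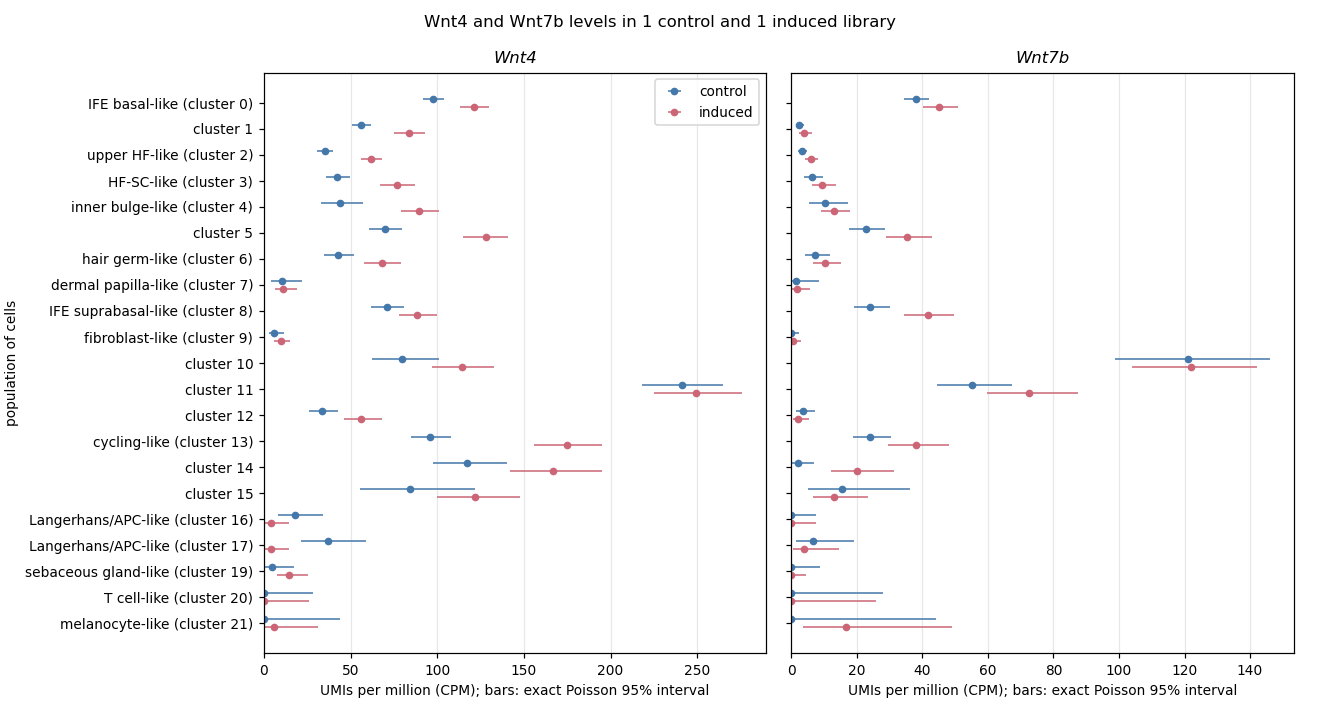
Points give the CPM of Wnt4 (left) and Wnt7b (right) in each population, blue for the control and red for the induced library, with exact Poisson 95% intervals as bars. Wnt4 lay to the right in the induced library in HF-SC-like, inner bulge-like, upper HF-like and cycling-like cells without overlap of intervals, while cluster 11 had 241 and 249 CPM.

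Wnt16 (ENSMUSG00000029671; chr6:22288178-22298522) was the only ligand among the 5 with its control peak in dermal papilla-like cells. It had 48 UMIs there in control, at 72.5 CPM (53.4 to 96.1), and 35 UMIs in induced cells, at 28.1 CPM (19.6 to 39.1). The log2 ratio was −1.36 (−2.04 to −0.71), and the intervals did not overlap. Cluster 11 had 27.5 and 28.7 CPM, which overlapped dermal papilla-like cells in the induced library. In cluster 1, marked by Tnfsf18 and Il24, Wnt16 had 52 control and 10 induced UMIs, a log2 ratio of −1.47 (−2.67 to −0.54), while IFE basal-like cells had 12.8 and 18.6 CPM. The cycling-like value of 0.63 (−0.36 to 1.61) was within counting error, and it was −0.073 without the highest-scoring doublets.

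A larger share of HF-SC-like, inner bulge-like and hair germ-like cells, among other populations, carried a ligand in the induced library. After thinning, at least 1 of the 5 ligands was seen in 30.5% (25.5 to 36.0) of control and 42.1% (36.2 to 48.1) of induced HF-SC-like cells, in 21.9% (15.5 to 29.3) and 40.2% (35.0 to 45.6) of inner bulge-like cells, and in 21.9% (16.1 to 28.6) and 38.1% (30.9 to 45.7) of hair germ-like cells. Unthinned shares were 46.8% and 62.7%, 33.7% and 49.9%, and 47.1% and 65.6%, in the same order. Wnt4 alone gave 17.4% and 31.7%, 15.9% and 34.4%, and 15.8% and 26.1% after thinning, so these shares in part repeat the Wnt4 values. Thinned Wnt10a shares were 13.8% and 10.4%, 2.65% and 1.46%, and 4.92% and 7.95%. Those of Wnt7b were 3.86% and 5.76%, 5.96% and 7.87%, and 2.19% and 7.95%. Fibroblast-like cells gave 2.65% and 5.84% thinned and 8.82% and 10.3% unthinned. Cluster 11 was close to saturated at 89.3% and 85.8%, and 59.3% and 62.3% of its cells held 2 or more ligands.

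Fzd6 (ENSMUSG00000022297; chr15:39006149-39038192), a Frizzled receptor best known for orienting hairs within the skin plane, was found across the epithelium. Many keratinocyte populations had similar levels, for example 12.4 and 13.9 CPM in HF-SC-like cells, 10.7 and 11.5 CPM in IFE basal-like cells and 12.8 CPM in both libraries of upper HF-like cells. Levels were higher in cluster 14 (23.5 and 25.2 CPM) and cluster 15. The latter had 40.5 CPM (21.6 to 69.2) and 22.6 CPM (13.6 to 35.3), on 13 and 19 UMIs. Cluster 10 was higher in control only, at 27.3 and 15.7 CPM, beside 16.7 CPM in induced inner bulge-like cells. Dermal papilla-like cells had 0 control UMIs and 1 induced UMI, and fibroblast-like cells had none in either library. Of 14 populations tested, 3 were lower past 1.5-fold (clusters 10 and 15 and cycling-like cells) and none higher. Over all genes 8.66% of pairs were lower and 10.3% higher. In all 14 populations the counting interval of the Fzd6 ratio included 0.

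Rspo3 (ENSMUSG00000019880; chr10:29453106-29535867), a secreted R-spondin, had its highest CPM in dermal papilla-like cells and lower CPM in IFE basal-like and suprabasal-like cells and cluster 11. Dermal papilla-like cells had 69 UMIs in control, at 104 CPM (81.1 to 132), and 154 UMIs in induced cells, at 124 CPM (105 to 145), which did not differ beyond counting error (log2 ratio 0.24, −0.17 to 0.68). Cluster 11 had 18 control and 59 induced UMIs, or 10.5 CPM (6.25 to 16.7) and 39.3 CPM (29.9 to 50.7), a log2 ratio of 1.87 (1.12 to 2.75). IFE suprabasal-like cells had 33 and 66 UMIs, at 10.3 and 22.7 CPM, a log2 ratio of 1.13 (0.51 to 1.79), and basal-like cells had 31 and 41 UMIs, at 3.15 and 6.65 CPM, a log2 ratio of 1.07 (0.37 to 1.80). Both epidermal populations and cluster 11 were thus higher in the induced library, while cluster 1, with 14 and 7 UMIs, had a log2 ratio of −0.10. The suprabasal value moved to 0.20 with cells thinned to 5000 UMIs, and that of cluster 11 ranged from 1.2 to 1.99 under the alternatives.

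All 5 dermal papilla markers were at 0 in cluster 11 in both libraries, and Notum had 1 UMI in each. In IFE suprabasal-like cells the 5 markers summed to 4 and 7 UMIs. Rspo3 UMIs in induced cluster 11 were spread over 29 of 112 cells, and the cell with the most held 6. After thinning, 2.86% of control (0.784 to 7.15) and 17.0% of induced cluster 11 cells (10.4 to 25.5) held a Rspo3 UMI, with 3 and 6 cells left out, beside 9.09% and 25.9% unthinned. HF-SC-like cells gave 0 of 311 and 0 of 278, which allow shares of up to 0.965% and 1.08%. The cells of cluster 11 had medians of 11714 and 13125.5 UMIs, and their stress genes summed to 12165 and 13525 CPM. Over all kept cells Rspo3 went from 3.58 to 7.63 CPM (log2 ratio 1.09), and it was 0.83 with populations weighted as in control.

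Lef1 (ENSMUSG00000027985; chr3:131110297-131224357), the β-catenin partner that binds DNA, was found largely in dermal papilla-like and hair germ-like cells, which held 54.3% and 28.1% of its control UMIs. Cluster 15 and cycling-like cells held 5.04% each, and HF-SC-like cells had 10 UMIs. Dermal papilla-like cells had 228 CPM in control (193 to 267) and 163 CPM in induced cells (141 to 187), hair germ-like cells had 35.4 and 31.6 CPM, and cluster 15 had 43.6 and 16.6 CPM. The order of cluster 15 and hair germ-like cells was not resolved in control, where their intervals overlapped. The ratios of these 3 populations, the only ones with enough UMIs, lay below 0. In dermal papilla-like cells the log2 ratio was −0.49 (−0.80 to −0.17), short of 1.5-fold, and in hair germ-like cells it was −0.16 (−0.64 to 0.31), reaching 0.73 under 1 alternative. Thinned shares of dermal papilla-like cells with a Lef1 UMI were 58.0% of 50 control and 42.4% of 139 induced cells, with 91 and 83 left out, beside 58.2% and 49.5% unthinned, while fibroblast-like cells gave 0 of 113 (up to 2.65%) and 0.649%. In cluster 15 it was −1.39 (−2.57 to −0.21) on 14 UMIs in each library, and it became 0.41 with cells under 5% mitochondrial UMIs. Over all kept cells the log2 ratio was 0.31, whereas weighting populations as in control gave −0.47. Dermal papilla-like cells were 3.58% of control and 6.12% of induced cells, a share that the sort also affects.

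Axin2 (ENSMUSG00000000142; chr11:108917828-108950783), a scaffold of the β-catenin destruction complex and a common readout of Wnt signalling, was sparse. Hair germ-like cells had 7 control and 28 induced UMIs, at 3.17 CPM (1.28 to 6.54) and 11.6 CPM (7.73 to 16.8), a log2 ratio of 1.80 (0.65 to 3.31). The 28 UMIs lay in 23 cells, none with more than 2, and the ratio ranged from 1.18 to 2.10 under the alternatives. Fibroblast-like cells had 13 and 40 UMIs, at 8.73 and 20.5 CPM, a log2 ratio of 1.2 (0.30 to 2.26). IFE basal-like cells had 12 and 17 UMIs, a log2 ratio of 1.16 (0.023 to 2.37), and HF-SC-like cells had 11 and 15 UMIs, at 0.60 (−0.61 to 1.88). Dermal papilla-like cells, at 15.1 and 10.4 CPM, and cluster 15, at 21.8 and 17.8 CPM, went the other way within counting error. Of 13 populations tested, 6 log2 ratios lay above 0, with a median of −0.013. Past 1.5-fold, 4 were higher and 1 lower, beside 10.3% and 8.66% of pairs over all genes. Among populations with at least 20 cells per library, T cell-like cells had the highest Axin2 level in both, from 19 UMIs (144 CPM) in 29 control cells and 7 UMIs (49.2 CPM) in 28 induced cells, for a log2 ratio of −1.49 (−3.04 to −0.24). Cluster 18, with T cell genes in the lead and only 8 control cells, had 1 and 22 Axin2 UMIs, at 27.9 and 62.0 CPM.

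Of the 8 dissociation stress genes, 5 (Fos, Fosb, Junb, Egr1 and Atf3) were higher past 1.5-fold in hair germ-like cells, beside 13.2% of all genes. The 8 summed to 5922 CPM in control and 11815 CPM in induced hair germ-like cells. The summed hair germ markers there were 406 and 384 CPM. The same markers summed to more in cluster 15 (667 and 623 CPM) and in dermal papilla-like cells (554 and 410 CPM). In hair germ-like cells the 6 smooth muscle and pericyte markers, which include Tagln, went from 130 to 942 UMIs in sum, or 58.9 and 392 CPM. Of these 6, 3 were at 0 in control and 2 in induced cells. In fibroblast-like cells the stress sum was 7577 and 8118 CPM, while the 6 fibroblast markers summed to 108886 and 72397 CPM, none at 0. The part of these shifts in the Axin2 values, and in the Wnt4 and Nkd1 values of hair germ-like cells, was not tested.

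Nkd1 (ENSMUSG00000031661; chr8:88521342-88594887), an inhibitor that binds Dishevelled, was highest in dermal papilla-like cells, at 36.2 CPM in control (23.2 to 53.9) and 53 CPM in induced cells (41.0 to 67.4), and in fibroblast-like cells, at 33.6 and 43.1 CPM. These 2 neighbours overlapped in each library. HF-SC-like cells had 34 and 33 UMIs, at 10.3 and 11.2 CPM, and inner bulge-like cells had 7.82 and 8.87 CPM. Hair germ-like cells had 39 and 22 UMIs, at 17.7 CPM (12.6 to 24.2) and 9.14 CPM (5.73 to 13.8), a log2 ratio of −0.94 (−1.78 to −0.16). Nkd1, the only carrier of a miR-205 seed site among the 10, was thus lower past 1.5-fold in 1 of 5 populations tested. Of all genes 9.80% were lower in hair germ-like cells, and 8.66% of pairs over all populations. In the other 4 populations the Nkd1 ratio lay above 0, and every interval included 0. A link to the site was not tested. With cells thinned to 5000 UMIs the hair germ-like value was −0.16, and with cells under 5% mitochondrial UMIs the HF-SC-like value was −0.65. Notum, another feedback gene, named here after its values were seen, had 38 control and 2 induced UMIs in hair germ-like cells, where the 5 dermal papilla markers summed to 5 and 3 UMIs. Over all kept cells the Nkd1 log2 ratio was 0.62, and it was 0.011 with populations weighted as in control.

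**Figure D3:**
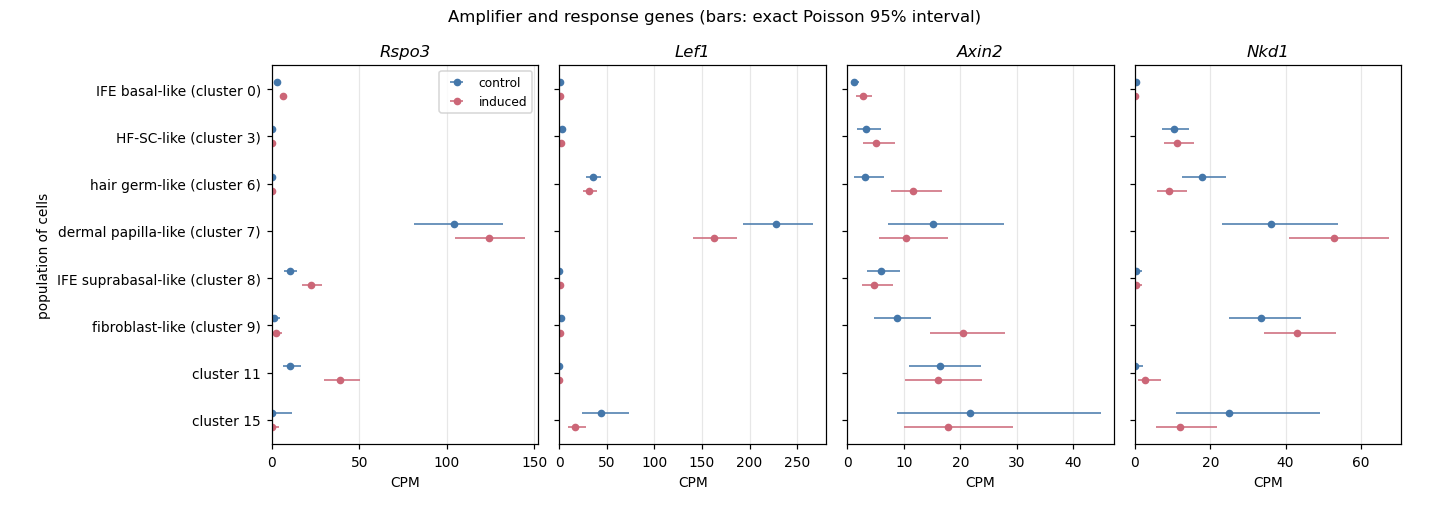
Points give the CPM of Rspo3, Lef1, Axin2 and Nkd1 in 8 populations, blue for control and red for induced, with exact Poisson 95% intervals as bars. Rspo3 in cluster 11 and Axin2 in hair germ-like cells lay higher in the induced library without overlap, and Lef1 in dermal papilla-like cells lay lower.

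Counted over the 21 populations, 96 pairs of gene and population had at least 20 UMIs. Of these, 22 were higher in the induced library past 1.5-fold and 9 lower, and 66 log2 ratios lay above 0. Over all genes 10.3% of 153473 such pairs were higher and 8.66% lower, and the share above 0 is not given here. The share of higher pairs was above that background, which was not matched for UMI count. The members were chosen with earlier results of these data known, so this share only describes these 10 genes. Pairs repeat the same genes over the same 2 libraries and are not independent, and Wnt4 and Wnt7b gave 14 of the 22. Some of the 22 had intervals that included 0, such as Wnt4 in fibroblast-like cells (−0.52 to 2.02). In HF-SC-like cells 2 of 6 tested members were higher (Wnt4 and Axin2) and none lower, beside 10.1% higher and 7.91% lower of all genes. Inner bulge-like cells had 1 of 5 higher (Wnt4) and 1 lower (Wnt10a), beside 11% and 5.89%. Hair germ-like cells had 2 of 7 higher (Wnt4 and Axin2) and 1 lower (Nkd1), beside 13.2% and 9.80%. Dermal papilla-like cells had none of 7 higher and 1 lower (Wnt16), beside 10.2% and 13.6%. Fibroblast-like cells had 2 of 3 higher (Wnt4 and Axin2) and none lower, beside 14.0% and 5.84%. Cluster 15, with 43 control cells, had none of 5 higher and 2 lower (Fzd6 and Lef1), beside 13.8% and 10.8%.

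**Figure D4:**
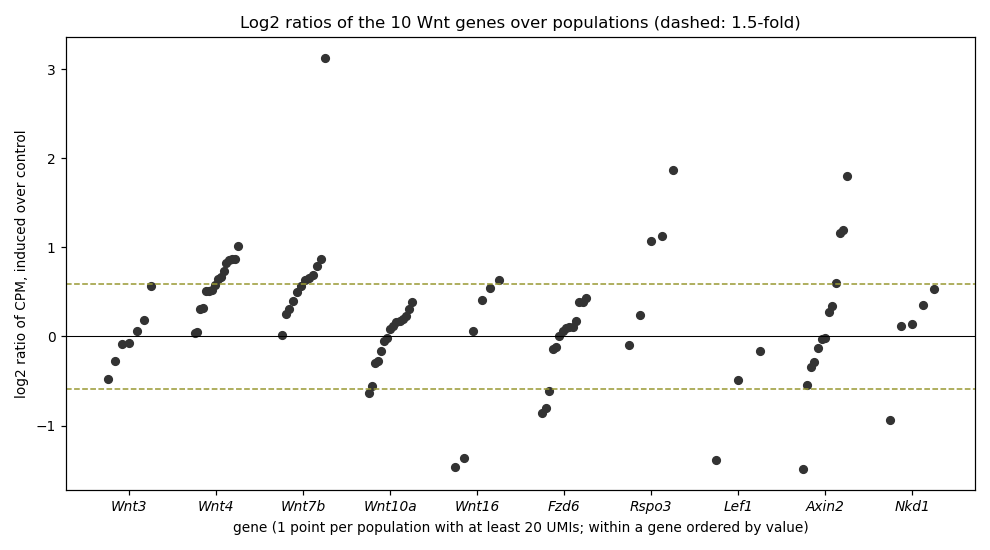
Each point is the log2 ratio of CPM, induced over control, of 1 gene in 1 population with at least 20 UMIs, ordered by value within a gene, and dashed lines mark 1.5-fold. All 16 Wnt4 points and all 12 Wnt7b points lay above 0, and all 3 Lef1 points lay below it.

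The other 83 genes of the pathway lists place these values. In HF-SC-like cells 50 of the 83 had enough UMIs, of which 9 were higher and 2 lower (10.1% and 7.91% of all genes), with a median log2 ratio of 0.17 beside 0.035 over all genes. In all 6 populations described, the order-statistic 95% interval of the list's median over its genes included the median of all genes. Among receptors, 3 of 11 tested were higher, and Ryk, a Wnt co-receptor, went from 53.7 to 116 CPM (log2 ratio 1.11, 0.85 to 1.39). Fzd1 went from 22.9 to 36.2 CPM, and Ror2 from 9 to 15 UMIs. The secreted inhibitors were split, since Sfrp1 went from 252 to 401 CPM and Sostdc1 from 169 to 304 CPM, whereas Wif1 went from 20 to 3 UMIs. Porcn, which acylates Wnt ligands for secretion, had 16 and 26 UMIs. Of the remaining genes past 1.5-fold, Dvl1, Bambi and Msx2 were higher and the ligand Wnt5b lower, at 15.7 and 8.80 CPM.

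In cluster 15, 36 genes were tested, of which 10 were higher and 4 lower (13.8% and 10.8% of all genes), with a median of 0.22 beside 0.032. Inhibitors contributed 4 of 5, namely Sfrp1 (352 and 579 CPM), Sostdc1 (352 and 616 CPM), Wif1 (11 and 49 UMIs) and Kremen1 (5 and 25 UMIs). Receptors contributed 4 of 7, namely Fzd3, Fzd7, Lrp5 and Ryk, with Fzd7 at 43.6 and 84.4 CPM. Dvl1 and Csnk1d were also higher, and Apc, Btrc, Tcf7 and Msx2 lower. In hair germ-like cells 53 were tested, 8 higher and 6 lower (13.2% and 9.80% of all genes), with a median of 0.14 (−0.021 to 0.31) beside −0.0046. Inner bulge-like cells had 4 higher and 1 lower of 39 (11% and 5.89%), with a median of 0.12, and fibroblast-like cells 8 higher and 1 lower of 51 (14.0% and 5.84%), with a median of 0.23 beside 0.084.

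In dermal papilla-like cells 44 were tested, 7 higher and 5 lower (10.2% and 13.6% of all genes), with a median of 0.11 beside −0.064. Rspo1, another R-spondin, had 24 control and 125 induced UMIs, at 36.2 and 100 CPM (log2 ratio 1.44, 0.83 to 2.16). Notum, a secreted enzyme that inactivates Wnt ligands, went from 1065 to 456 CPM (log2 ratio −1.22, −1.39 to −1.06), and Nkd2 from 214 to 132 CPM. Wnt11, Fzd2, Ryk, Frzb, Dvl1 and Fbxw11 were the other genes higher, and Lrp5, Lgr6 and Msx2 the others lower. The 5 dermal papilla markers summed to 3206 CPM in control and 1741 CPM in induced cells, almost all of it Crabp1, and the stress genes to 8952 and 7085 CPM. The part of these shifts in the Notum, Lef1 and Wnt16 values was not tested. These cells lie outside the keratin 14-positive epithelium that the model targets directly, and their miR-205 level was not measured here.

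Of the most abundant gene pairs of each list over all kept cells, Csnk1a1, a kinase of the destruction complex, had 544 and 542 CPM, and Ctnnb1, which encodes β-catenin, 264 and 278 CPM. Tcf7l2 and Bcl9l had log2 ratios of 0.19 and 0.48, Ryk and Lrp6 0.53 and 0.17, Sostdc1 and Sfrp1 0.29 and 1.02, and Myc and Ccnd1 0.35 and 0.12. Wls, the Wnt carrier in secretion, was at −0.25, Porcn at 0.21, Wnt11 and Wnt6 at 0.44 and 0.13, and Lgr4 and Lgr5 at 0.21 and 0.14. These values over all cells also carry the differing shares of populations.

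The genes whose levels ran most like each member were found by Pearson's r of log2(CPM + 5) over 15 populations in 2 libraries, which are not independent points. For Wnt3 these were Celf4, Il22ra2 and Slc24a3, each at 0.93, and for Wnt4 Dnase2a (0.92), Plpp2 and 2510002D24Rik (both 0.90). Wnt7b was closest to Ppp3ca (0.81), Pdgfb and Cd9, and Wnt10a to Dlk2 (0.87), Card10 and Rabggtb. Wnt16 ran most like Col23a1 (0.92), Flvcr1 and Adcy3, and Fzd6 most like the epithelial genes Fxyd3 (0.94), Kdf1 and Esrp1. Rspo3 was closest to Acap3 (0.86), Chst15 and Dio2, Lef1 to Plod2 (0.93), Nek6 and Gm1673, Axin2 to Bmyc (0.87), Spry1 and Gatd1, and Nkd1 to Fyn, Ror2 and Arhgef25 (each 0.96). Among the members, the closest pair was Wnt16 and Rspo3 in control (0.89, and 0.85 in induced populations) and Wnt4 and Fzd6 in induced populations (0.86, and 0.81 in control), and Wnt4 and Nkd1 ran opposite, at −0.77 and −0.78.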

How the data were processed

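The authors made the tables with Cell Ranger (3.0.1 in the matrix header; build mm10 in the submitters' processing notes) and deposited raw UMI counts for each gene in each barcode. Cells with more than 200 and fewer than 5000 genes and less than 10% mitochondrial UMIs were kept. Libraries were integrated in Seurat 5.3.0 (R 4.3.3; 2000 variable genes, 30 dimensions, Louvain resolution 0.8), with 21 Wnt genes withheld from the variable genes. The naming rule was set after seeing the data: most and at least 3 of a class's markers raised 2-fold, with at least 20 UMIs and in 5% of cells, and more of them among the 10 leading genes than any other such class. Doublets stayed in. Scrublet (scanpy 1.11.5) marked too few by its own threshold, so an alternative left out the highest scores, which kept 3804 and 3512 cells.

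Counts were added over the cells of a population in each library and expressed as CPM. Log2 ratios used a pseudocount of 0.5 UMIs and a minimum of 20 UMIs, control and induced added. Intervals are Poisson for levels, conditional binomial for ratios and Clopper-Pearson for shares, and a count of 0 allows 3. Thinning to 5000 UMIs left out 304 control and 328 induced cells. The ratio and its interval were checked only on simulated Poisson counts, which hold no variation between cells, mice or libraries. Members, gene lists and tests were chosen with earlier results of these data known. Named genes were all 10 members, pathway genes past 1.5-fold in the HF-SC-like, cluster 15 or dermal papilla-like populations, and the 2 genes of each list with most UMIs. UTRs came from annotated transcripts on another build (NCBIM37) and give no coordinates here; gene coordinates are from RefSeq, GRCm38.p6. UMIs on genes that overlap on opposite strands were not separated.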

Additional observations from a re-analysis of the deposited data

Results flagged for a closer look

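Axin2 was past 1.5-fold in opposite directions in 2 populations, with a log2 ratio of 1.80 in hair germ-like cells (cluster 6) and −1.49 in T cell-like cells (cluster 20). Wnt16 had 0.63 in cycling-like cells (cluster 13) and −1.47 in cluster 1. These differences between populations were not tested, since each rests on 1 library per mouse, and the first Wnt16 value lay within counting error.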

How the results depend on the processing

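No paired analysis was possible because each group has 1 library. Under 11 alternatives to cells, scaling and clustering, 1028 of 1075 values of single genes stayed within their main counting interval, 43 moved outside it and 4 called ratios changed sign. The alternatives reuse the counts of the same libraries and are not independent checks. Changes of sign in ratios short of 1.5-fold were not counted among the 4. Lef1 in cluster 15 became 0.41 under 5% mitochondrial UMIs. Wnt16 in cycling-like cells became −0.073 without the highest-scoring doublets and −1.20 with cell types set by markers detected. Wnt7b in cluster 1 became −0.086 at resolution 1.2. The Wnt4 ratio was above 0 in 90% to 100% of the populations under every alternative and the Wnt7b ratio in 77.8% to 100%. The 22 higher and 9 lower pairs became 10 and 0 with at least 100 UMIs, 42 and 40 with at least 1 UMI, and 8 and 4 at 2-fold. Cell types set by markers detected gave 14 higher pairs over fewer populations, and thinning gave 5 lower pairs over fewer UMIs. The median of the other pathway genes in fibroblast-like cells moved to 0.075 at resolution 1.2, and the cause was not tested. In dermal papilla-like cells that median ran from −0.014 to 0.17. The marker rule put only 8 cells in the dermal papilla class and 58 in the hair germ class, so its values for them say little.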
